A study of Mus musculus with 75 samples.

Results

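The genes described here encode motile cilia and the factors that switch them on. They were taken by symbol from a list of 36, which was chosen with earlier results of these data known. Of these, 33 were found in both tables of expression values, among 20636 genes measured in tissues and 16926 in the choroid plexus of parabionts. Where a gene had several transcripts, the one with the highest mean was used. Rfx2, Rfx3, Spag6 and Spag16 had 2. Dnah3, Dnah7a and Dnah12 were not found by name and were not analysed here. Spag6 is the transcript the tables give that symbol, which RefSeq now calls Spag6l; mouse has a close paralog of it, and reads could be split between the pair. RNA was sequenced from 11 tissues of 6 C57BL/6 mice titled WT (wild type), 3 aged (22 months) and 3 young (3 months). It was also sequenced from the choroid plexus of C57BL/6 parabionts, mice joined so that they share a circulation. Parabionts were 3 young and 3 old animals in isochronic pairs, which join mice of the same age, and 3 young and 2 old animals in heterochronic pairs, which join mice of different age. Parabionts were again 3 or 22 months old, the tissue donors had no treatment, and PBS perfusion preceded dissection in every group, per the labels. The tissues compared were choroid plexus, lung and hippocampus, each against the mean of 8 others: bone marrow, thymus, spleen, colon, liver and cervical, inguinal and mesenteric lymph nodes.

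A motile cilium beats by means of its axoneme, a bundle of doublet microtubules around a central pair. Outer and inner dynein arms on the doublets are the motors, radial spokes connect the doublets to the central pair, and nexin links hold neighbouring doublets together. FOXJ1 and the RFX factors RFX2 and RFX3 drive the transcription of these parts. Beating cilia are known from the ciliated cells of the airways and the ependymal cells that line the brain ventricles, and the epithelium of the choroid plexus, which makes the cerebrospinal fluid, also carries tufts of cilia.

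Values are normalised reads, a signal read as proportional to the reads of a transcript in a library. In parabionts the largest gene held only 848 to 993 reads per library, against 2012 to 222839 in tissue libraries. Abundant genes of parabionts thus met a ceiling, and their differences may be understated. How far this reaches genes of lower value was not tested. A single read was worth 0.998 to 1.38 in choroid plexus, 0.648 to 1.04 in lung and 0.875 to 1.55 in hippocampus, so values near 1 rest on about 1 read. Depth was 660180 to 884722 reads in choroid plexus, 679424 to 1068710 in lung, 460903 to 849314 in hippocampus and 698651 to 1294670 in parabionts. A value of 0 allows up to 3 reads, or 2.99 to 4.14 on the scale of values in choroid plexus and 1.94 to 3.12 in lung. The defining markers matched their tissues: Folr1, a folate receptor of choroid plexus epithelium, was 1267 to 1541 in choroid plexus, at most 4.52 in lung and hippocampus, and Scgb1a1, the club cell secretoglobin, was 51400 to 61867 in lung. Libraries of young mouse 2 stood apart. Its spleen library held Foxj1 at 59.2 and Scgb1a1 at 23228, where spleens of the other young mice held 1.06 and 1.96 for Foxj1 and 26.5 and 13.7 for Scgb1a1. Its lung library held Alb, the liver albumin gene, at 32238, where the 5 other lung libraries held 10.7 to 24.0. Libraries of young mouse 2 were therefore left out of the fits, except for its choroid plexus library in comparisons of age. That library was kept in the age comparison of choroid plexus and in the differences between its age change and those of lung and hippocampus. Where 3 young choroid plexus values are listed, the second is of this mouse. Ranges given for single genes in a tissue leave this mouse out. Its choroid plexus held Dnah9 at 27.6, Dnah11 at 13.8 and Gmnc at 5.52, outside the ranges given below. RNA of choroid plexus was purified with a MicroPrep kit (17 libraries) and RNA of all other tissues with miRNeasy (57 libraries), so tissue and kit cannot be told apart in comparisons with choroid plexus.

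The first question was where the genes are expressed. Most were higher in choroid plexus and lung, and fewer in hippocampus, than in the 8 other tissues. Against the mean of the others, with mouse as a term in a limma fit across all genes, 28 of 33 rose in choroid plexus and 29 of 33 in lung at a Benjamini-Hochberg adjusted p under 0.05, while none fell in either. Over all 17236 genes tested, 28.5% were called higher and 31.4% lower in choroid plexus, and 24.3% and 17.6% in lung. In hippocampus 19 of 33 were called higher, where 33.4% of all genes were, and 1 was called lower, where 31.9% were. The median difference of the 33 genes was 2.95 on the log2 scale in choroid plexus, 3.37 in lung and 0.64 in hippocampus, against -0.07, 0.01 and -0.02 for all genes. These medians depend on the pseudocount. With one 4 times as large they were 1.78, 1.89 and 0.27, and with the smallest value above 0 they were 6.08, 5.99 and 2.39, so that choroid plexus then came before lung. In bulk tissue, fewer cells of a type and less RNA per cell cannot be told apart. Differences are of log2(value + pseudocount), with a pseudocount worth about 1 read, and so understate the change of genes near 0.

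Choroid plexus and lung shared 25 of the genes called higher, which is 25 of 28 in choroid plexus and 25 of 29 in lung, and 16 of the 25 were also called higher in hippocampus. Mns1, Rfx3 and Spag16 were called in choroid plexus and not in lung, and Ccdc40, Dnah5, Spag17 and Tppp3 in lung and not in choroid plexus. Iqcg, of the nexin-dynein regulatory complex, was called in neither (0.66 ± 0.38, adjusted p = 0.14, in choroid plexus and 0.26 ± 0.38, adjusted p = 0.64, in lung). By mean value, 17 of the 33 genes were highest in choroid plexus, 14 in lung, 1 in hippocampus (Rfx3) and 1 in thymus (Mns1). The number of the 33 genes above 0 was 28 to 31 per library in choroid plexus, 31 to 32 in lung and 21 to 29 in hippocampus.

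**Figure D1:**
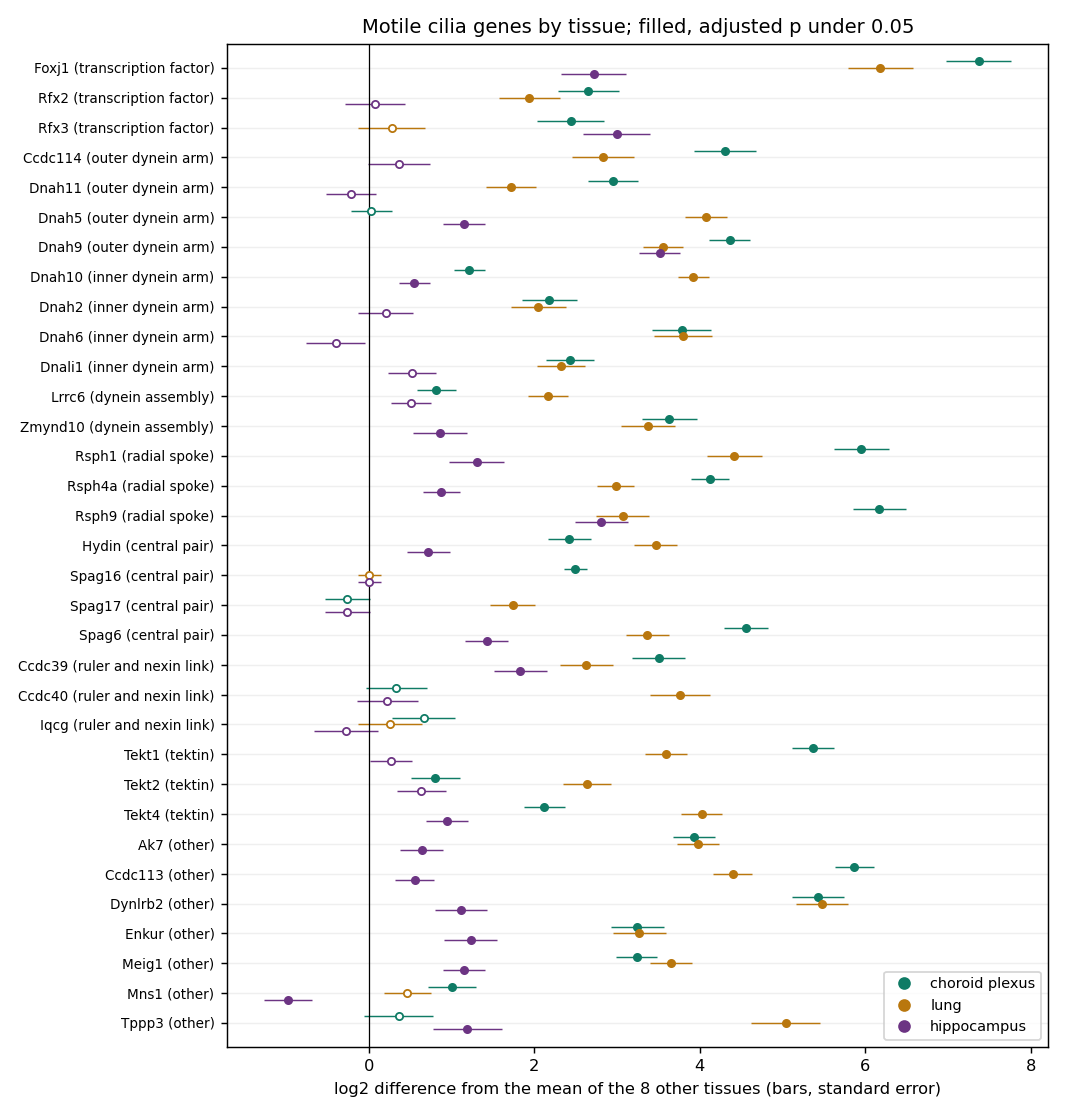
Log2 difference of each motile cilia gene from the mean of the 8 other tissues (x axis) in choroid plexus, lung and hippocampus, with standard errors; filled points had an adjusted p under 0.05. Foxj1 lies farthest to the right, at 7.37 in choroid plexus and 6.18 in lung, and the hippocampus points mostly lie nearer to 0.

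Foxj1, the regulator without which motile cilia are not made, showed the largest difference of all 33 genes. It was 443, 304 and 232 in choroid plexus of aged mice 1 to 3 and 313, 232 and 356 in young mice 1 to 3. In lung it was 206, 175 and 119 in aged mice and 108 and 120 in young mice 1 and 3. Choroid plexus libraries were thus all above lung libraries, and hippocampus followed with 20.1, 12.3 and 15.1 in aged and 6.19 and 9.71 in young mice. Across 37 libraries of the 8 other tissues the lowest, median and highest values were 0, 0.869 and 9.00. The log2 difference from these tissues was 7.37 ± 0.39 (SE) in choroid plexus (adjusted p = 9.1e-23), 6.18 ± 0.39 in lung (adjusted p = 3.9e-19) and 2.72 ± 0.39 in hippocampus (adjusted p = 2.7e-08). Between choroid plexus and lung the difference of 1.19 ± 0.52 missed the threshold (adjusted p = 0.058), although the 5 libraries of each did not overlap; it passed under 4 of its alternatives, with a pseudocount 4 times as large (adjusted p = 0.00044), with voom (0.00027), without aged mouse 3 (0.024) and without the inguinal lymph nodes of aged mouse 3 (0.044).

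Rfx2 and Rfx3, which bind the X-box of ciliary promoters, did not follow the same order. Rfx2 was 24.3, 17.1 and 19.0 in aged and 25, 20.7 and 11.3 in young choroid plexus, and 11.0, 11.4, 9.76, 13.2 and 9.80 in lung. Bone marrow came next with 4.55 to 10.5, overlapping lung, and thymus with 3.75 to 8.99. Rfx2 was higher than in the 8 other tissues by 2.65 ± 0.37 in choroid plexus and 1.94 ± 0.37 in lung, and differed by 0.07 ± 0.37 in hippocampus (adjusted p = 0.87).

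Rfx3 was highest in hippocampus, at 14.7, 38.9 and 19.7 in aged and 28.2 and 17.1 in young mice. In choroid plexus it was 5.12, 14.7 and 20.8 in aged and 13.1, 9.66 and 32.6 in young mice, so the values of these tissues overlapped, and their difference of -0.56 ± 0.53 was not called (adjusted p = 0.43). Lung held only 1.04 to 5.83, within the range of 0 to 13 of the 8 other tissues. Rfx3 was called higher in hippocampus (3.00 ± 0.40, adjusted p = 4.3e-09) and choroid plexus (2.44 ± 0.40, adjusted p = 6.7e-07), and it was 2.16 ± 0.53 higher in choroid plexus than in lung (adjusted p = 0.00065). With the smallest value as pseudocount the difference from lung was 2.59 and no longer called (adjusted p = 0.088).

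**Figure D2:**
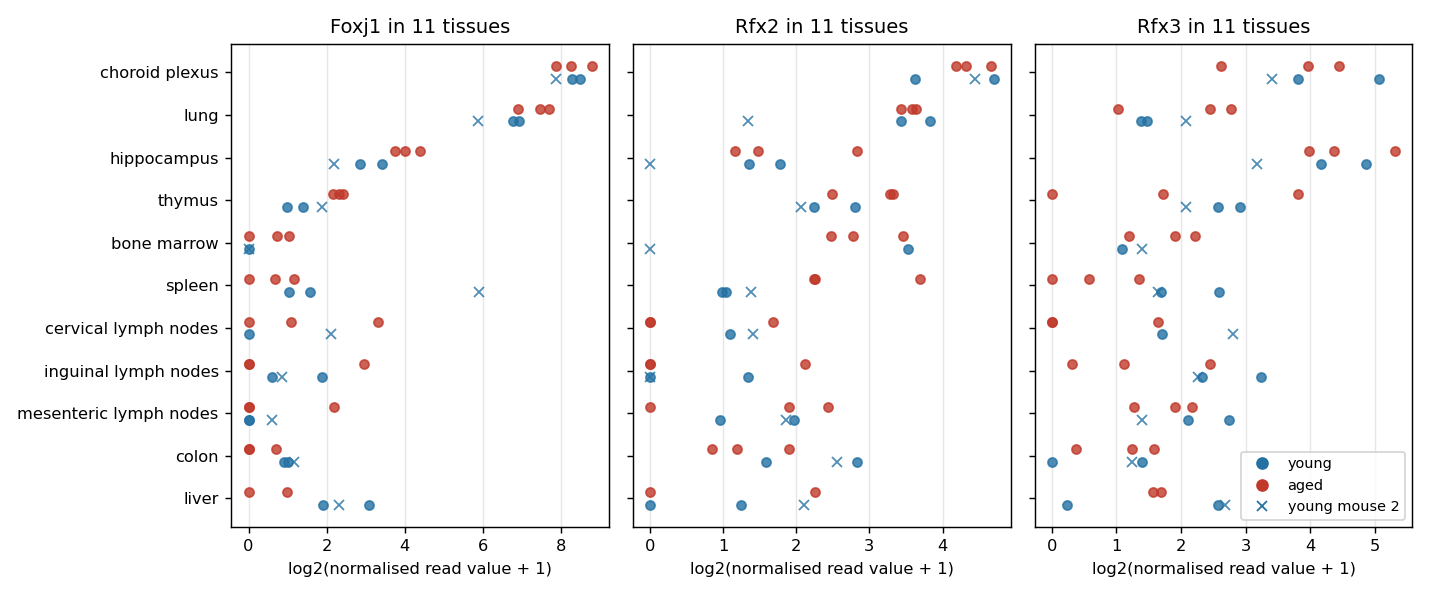
Normalised read values of Foxj1, Rfx2 and Rfx3 (x axis, log2 of value plus 1) in each library of 11 tissues, aged in red and young in blue; crosses are young mouse 2, which was left out of the fits between tissues. Foxj1 steps down from choroid plexus over lung to hippocampus, whereas Rfx3 is highest in hippocampus and low in lung. For Foxj1 the spleen cross (59.2) lies beside the lung cross (57.4) and below the other lung values.

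Since RFX factors and FOXJ1 bind known motifs, the promoters of the genes were searched for them. RefSeq promoter windows (GRCm38.p6, 250 bases before to 50 after a transcription start) were given for 28 of the 33 genes and for 27025 genes in all. The RFX half-site GTTGCC, on either strand, was found for 15 of 28 motile cilia genes, and for 14.1% of all genes with a window. Its 23 matches lay between 138 bases before and 40 bases after the start. Of these, 18 lay no more than 100 bases before the start or lay after it. Sites of Tekt2, which has several starts, are counted once for each start. Positions of matches over all genes were not counted. A longer X-box form, GTNNCC followed after 3 bases by GNAAC, with N any base, matched 7 of the 28 genes against 2.49% of all genes. GTTGCC followed after 2 bases by GGNAAC, a subset of the form, matched none (0.355% of all genes). A forkhead motif, GTAAACA, was found in Ak7 alone of the 28 (4.05% of all genes). Looser forms were less selective: GTTNCC, which includes every GTTGCC, was found for 24 genes (48.8% of all genes) and TAAACA, part of GTAAACA, for 6 (15.1%). These 6 motifs are all that were searched, and a match describes letters, not binding.

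The half-site did not separate genes higher in choroid plexus from those higher in lung: it was found for 5 of 9 called higher in choroid plexus, 4 of 7 called higher in lung and 6 of 12 called in neither direction. The 250 bases before the start are shown for Tekt1 and Ccdc113, higher in choroid plexus, and Dnah10, higher in lung, because each holds the half-site close to the start. Capitals mark GTTGCC or its reverse complement GGCAAC, and each sequence runs 5′ to 3′ along the gene's strand. Tekt1 lies at chr11:72361883-72362132 (minus strand), Ccdc113 at chr8:95533850-95534099 (plus strand) and Dnah10 at chr5:124724835-124725084 (plus strand).
Tekt1: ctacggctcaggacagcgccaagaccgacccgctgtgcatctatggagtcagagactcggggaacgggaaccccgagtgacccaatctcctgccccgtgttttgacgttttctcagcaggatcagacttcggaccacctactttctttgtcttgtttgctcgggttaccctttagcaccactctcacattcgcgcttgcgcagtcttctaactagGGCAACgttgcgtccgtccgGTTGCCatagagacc
Ccdc113: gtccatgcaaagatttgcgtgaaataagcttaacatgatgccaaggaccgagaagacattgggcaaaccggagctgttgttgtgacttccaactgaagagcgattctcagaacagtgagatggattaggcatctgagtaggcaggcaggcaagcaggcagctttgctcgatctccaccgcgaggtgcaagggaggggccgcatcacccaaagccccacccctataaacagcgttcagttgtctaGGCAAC
Dnah10: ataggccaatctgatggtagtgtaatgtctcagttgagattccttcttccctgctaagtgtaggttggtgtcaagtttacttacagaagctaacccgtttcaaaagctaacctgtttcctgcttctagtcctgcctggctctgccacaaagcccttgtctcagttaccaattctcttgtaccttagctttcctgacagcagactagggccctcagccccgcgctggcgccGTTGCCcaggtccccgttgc

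All matches of the longer X-box form follow, written 5′ to 3′ on the strand of the match, since they show how far the letters vary between ciliary genes. Tekt4 holds a pair of them, and the match of Spag6 lies in the window of Spag6l. Capitals mark the whole match. They lie at chr1:69826867-69826880 (plus) for Spag16, chr8:110266956-110266969 (minus) for Hydin, chr7:45924200-45924213 (plus) for Ccdc114, chr2:21205364-21205377 (minus) for Enkur, chr9:107547304-107547317 (minus) for Zmynd10, chr16:16829316-16829329 (plus) for Spag6, and chr17:25471430-25471443 (plus) and chr17:25471590-25471603 (minus) for the upstream and start-site matches of Tekt4.
Spag16: GTTGCCGTAGTAAC
Hydin: GTTGCCACAGCAAC
Ccdc114: GTCTCCCCAGTAAC
Enkur: GTTTCCTTAGCAAC
Zmynd10: GTCGCCATGGAAAC
Spag6: GTCTCCAGGGCAAC
Tekt4, first: GTGTCCTGGGAAAC
Tekt4, second: GTTGCCTAAGGAAC

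Set against each other directly, choroid plexus and lung each had the higher value for about as many genes. Of the 33 genes, 11 were called higher in choroid plexus and 9 higher in lung, where 18.9% and 25.5% of all genes were, and 13 were called in neither direction. With the smallest value above 0 as pseudocount, 2 and 7 were called. Genes named in the following paragraphs for this split were chosen after their values were seen, except Foxj1, Rfx2 and Rfx3. Rsph9, Spag17 and Dnah5 were picked by the size of their choroid plexus difference from the 8 other tissues, which uses the same choroid plexus libraries. Because reads were tagged at transcript ends in the protocol the labels cite, 1 transcript stands for a gene, and a tissue that ends the transcript elsewhere would be undercounted; this was not tested.

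Among the outer dynein arm genes, the heavy chain Dnah5 was higher in lung. It was 27.2, 13.5 and 26.6 in aged and 16.7 and 12.9 in young lung, but 1.28 in choroid plexus of aged mouse 1 and 0 in the 5 other choroid plexus libraries. The difference was -4.05 ± 0.33 (adjusted p = 3.8e-15), and choroid plexus differed from the 8 other tissues by 0.03 ± 0.25 (adjusted p = 0.93). The other heavy chains of the arm went the opposite way: Dnah9 was 19.0 to 26.9 in choroid plexus and 9.69 to 21.4 in lung (0.80 ± 0.32, adjusted p = 0.039), and Dnah11 was 7.68 to 11.2 and 0.808 to 5.33 (1.23 ± 0.40, adjusted p = 0.010). Ccdc114, which docks the outer arm on the doublet, was also higher in choroid plexus (1.47 ± 0.50, adjusted p = 0.012). Parabiont libraries, which the tissue fit did not use, held Dnah5 at 0 in 8 of 11 and at 0.961, 0.852 and 2.48 in the other 3, while Dnah9 and Dnah11 were above 41 in each. Dnah5 was thus near 0 in choroid plexus of both experiments.

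Of the inner-arm genes, the heavy chain Dnah10 was called lower in choroid plexus than in lung. It was 2.56, 2.44 and 2.24 in aged and 0.998, 0 and 0 in young choroid plexus, and 17.5, 19.8, 15.1, 13.2 and 9.69 in lung, with no overlap (-2.71 ± 0.25, adjusted p = 2.7e-13). Dnah2, Dnah6 and Dnali1, also of the inner arms, differed between these tissues by 0.13 ± 0.44, -0.02 ± 0.47 and 0.10 ± 0.38 and were not called. All 4 were called higher in choroid plexus and in lung than in the 8 other tissues. Of the dynein assembly factors, Lrrc6 was lower in choroid plexus than in lung (-1.35 ± 0.32, adjusted p = 0.00037) and Zmynd10 was not called (0.26 ± 0.44, adjusted p = 0.68).

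The 3 radial spoke head genes were all higher in choroid plexus. Rsph9 was 183, 156 and 194 in aged and 93.8, 131 and 193 in young choroid plexus, and 24.6, 18.7, 16.0, 17.6 and 12.9 in lung. Choroid plexus values lay far above lung values, which resembled hippocampus (19.2, 16.0 and 8.86 in aged and 13.9 and 17.0 in young mice). The difference of choroid plexus from lung was 3.10 ± 0.42 (adjusted p = 1.6e-08), and from the 8 other tissues 6.17 ± 0.32 (adjusted p = 3.0e-23), the second largest after Foxj1. Rsph1 was higher in choroid plexus than in lung by 1.54 ± 0.44 and Rsph4a by 1.14 ± 0.30 (adjusted p = 0.0032 and 0.0014).

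Central pair genes were split. Spag6, needed for ciliary beating, was 16.6, 23.2 and 32.4 in aged and 25, 13.8 and 30.1 in young choroid plexus. In lung it was 16.2, 19.8 and 20.4 in aged but 2.64 and 5.66 in young mice, so aged lung overlapped choroid plexus and young lung lay below it. Across the 8 other tissues its lowest, median and highest values were 0, 0 and 1.74, and it was called higher in choroid plexus (4.56 ± 0.26, adjusted p = 1.7e-21), lung (3.37 ± 0.26, adjusted p = 6e-16) and, on 1 to 3 reads per library, hippocampus (1.42 ± 0.26, adjusted p = 4.2e-06). Between choroid plexus and lung it differed by 1.19 ± 0.35 (adjusted p = 0.0037).

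Spag17 was 0 in all 6 choroid plexus libraries and all 5 hippocampus libraries, and 5.83, 6.24, 3.55, 3.53 and 0 in lung, a difference between choroid plexus and lung of -2.0 ± 0.36 (adjusted p = 5.4e-06). Another central pair gene, Spag16, has 2 transcripts in the data, and the values here are of the one used. It was listed at 0 in every lung, hippocampus and other library in the fit, and at 3.84, 6.11, 4.48, 2.0, 2.76 and 8.78 in choroid plexus. The transcripts used for Spag17 and Spag16 were thus each above 0 where the other was at or near 0. Lung values of the other Spag16 transcript were not examined. The values amount to a few reads per library. Hydin, a very large central pair protein, was higher in lung (-1.05 ± 0.34, adjusted p = 0.010). In parabionts Spag16 was 18.6 to 30.7, Spag6 was 62.9 to 91.6, and Spag17 did not exceed 2.32.

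Ccdc39 and Ccdc40 form together the ruler that sets the spacing of dynein arms and spokes. Ccdc39 was 14.7 to 25.7 in choroid plexus and 6.48 to 15.8 in lung, and was not called between them (0.88 ± 0.42, adjusted p = 0.090). Ccdc40 was 5.12, 0, 1.12, 0, 1.38 and 2.51 in choroid plexus and 35.6, 33.4, 28.4, 10.6 and 14.5 in lung (-3.43 ± 0.49, adjusted p = 3.8e-08). Of these tissues Ccdc40 was called higher than in the 8 others in lung alone (0.33 ± 0.37 in choroid plexus, 0.22 ± 0.37 in hippocampus), whereas Ccdc39 was called higher than in the 8 other tissues in choroid plexus, lung and hippocampus.

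The tektins, filament proteins inside the doublets, also divided. Tekt1 was 57.6, 47.7 and 47.0 in aged and 42.9, 30.4 and 47.7 in young choroid plexus, above the 7.27 to 21.8 of lung (1.78 ± 0.34, adjusted p = 1.5e-05). Tekt2 (-1.83 ± 0.39) and Tekt4 (-1.90 ± 0.33) were lower in choroid plexus than in lung (adjusted p = 8.7e-05 and 3.0e-06). Tppp3, a tubulin-binding protein that is found in ciliated airway cells and elsewhere, showed the largest excess in lung: 302 to 375 there against 8.95 to 16.3 in choroid plexus (-4.68 ± 0.55, adjusted p = 1.4e-09). Colon held Tppp3 at 59.2 to 116, above every choroid plexus library. Among the remaining genes, Ccdc113 was higher in choroid plexus (1.47 ± 0.31, adjusted p = 9.3e-05), and Ak7, Dynlrb2, Enkur, Meig1 and Mns1 were not called between the tissues. Mns1 was highest in thymus (52.3 to 81.2) and bone marrow (32.5 to 61.1).

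**Figure D3:**
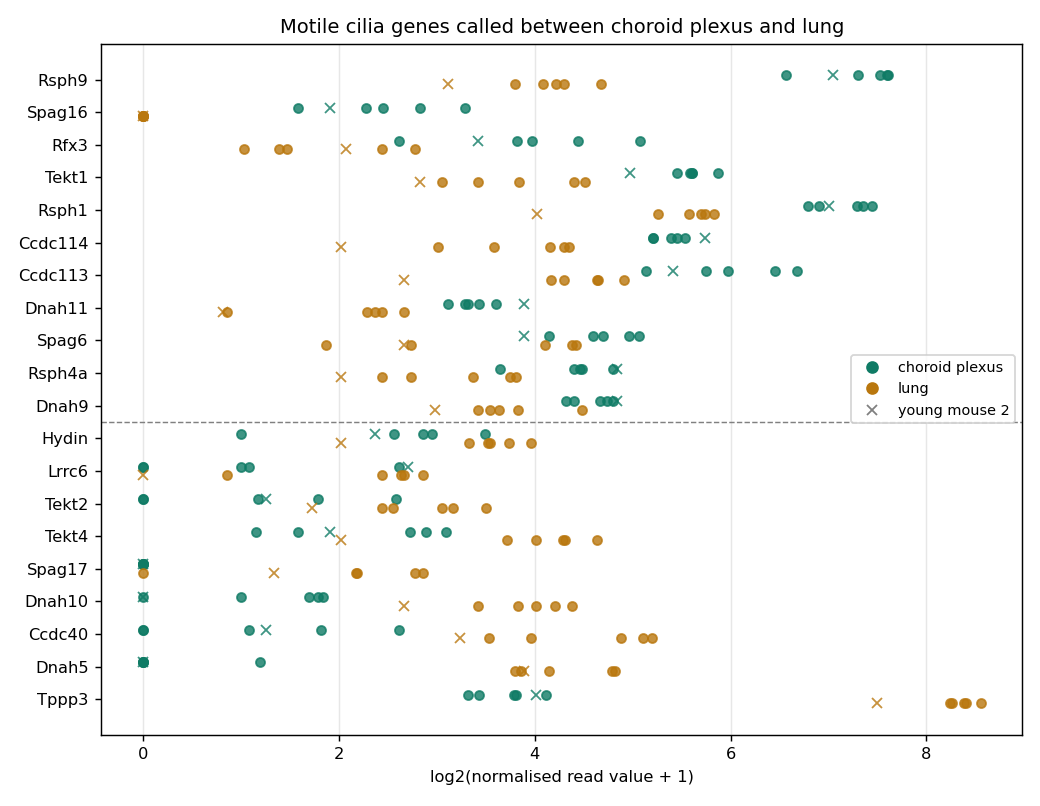
Normalised read values (x axis, log2 of value plus 1) of the 20 motile cilia genes called between choroid plexus (green) and lung (orange), one point per library; crosses are young mouse 2, not used in the fit. The 11 genes above the dashed line are higher in choroid plexus and the 9 below are higher in lung, with Dnah5, Ccdc40 and Spag17 at or near 0 in choroid plexus.

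Hippocampus expressed a smaller set. Choroid plexus was called higher than hippocampus for 25 of 33 genes, where 20.7% of all genes were, and lower for Dnah5 alone (-1.12 ± 0.33, adjusted p = 0.0041), where 26% were. The Dnah5 call rests on 1 to 3 reads per hippocampus library and 0 or 1 in choroid plexus. The largest differences of hippocampus from the 8 other tissues were in Dnah9 (3.51 ± 0.24), Rfx3 (3.00 ± 0.40), Rsph9 (2.81 ± 0.32) and Foxj1 (2.72 ± 0.39). Dnah9 was 14.0, 13.6 and 7.98 in aged and 15.5 and 12.1 in young hippocampus, and at most 3.00 in the 8 other tissues. Most others rested on few reads: only 13 of the 33 genes were above 0 in all 5 libraries. Mns1 was lower than in the 8 other tissues (-0.98 ± 0.29, adjusted p = 0.0026). Summed choroid plexus epithelial markers were 215 to 486 in hippocampus and 231943 to 296349 in choroid plexus, and Folr1 was 0.875 to 4.52 in hippocampus; the part of choroid plexus tissue in the hippocampal values was not tested.

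Other motile cilia genes, from a list drawn up beside the members, gave a similar picture. Of 54 other motile cilia genes tested, 47 rose and 2 fell in choroid plexus, 48 rose and 0 fell in lung, and 28 rose and 4 fell in hippocampus, with medians of 2.81, 2.31 and 0.73. Nme5, Lrriq1 and Wdr63 had the smallest p in choroid plexus, with differences of 5.69, 5.83 and 5.08. Between choroid plexus and lung 23 of these were called higher and 9 lower: Ccdc153 was 1.22 to 13.4 in choroid plexus and 82.0 to 115 in lung (-4.42 ± 0.40), and Tmem212 (-4.07 ± 0.42) and Fam183b (-4.33 ± 0.47) went the same way. Intraflagellar transport and BBSome genes, which build primary as well as motile cilia, were called higher in choroid plexus for 27 of 29, in lung for 19 and in hippocampus for 22, with medians of 1.97, 1.05 and 1.52.

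A list of the multiciliated programme, which also held the further RFX genes Rfx1, Rfx4, Rfx5 and Rfx7, gave another picture. Of 12 genes tested, 3 were called higher and 5 lower in choroid plexus than in the 8 other tissues (28.5% and 31.4% of all genes). In lung 5 and 2 were (24.3% and 17.6%), and in hippocampus 3 and 5 (33.4% and 31.9%). Medians were -0.08, -0.03 and -0.16. Between choroid plexus and lung, 2 of the 12 were called higher and 5 lower in choroid plexus, where 18.9% and 25.5% of all genes were. Gmnc, the geminin-family gene at the top of the programme, was 7.33 to 14.0 in choroid plexus and 0 in all 5 lung libraries. Trp73, the gene of the factor p73, was 7.83 to 18.3 in choroid plexus and 0 to 4.44 in lung (2.31 ± 0.32, adjusted p = 2.5e-08). Myb, which acts early in airway multiciliated cells and in blood cell precursors, was higher in lung (-2.54 ± 0.36, adjusted p = 3.0e-08).

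The second comparison asked whether expression changed with age. In choroid plexus no gene of the 33 was called between 3 aged and 3 young mice. Dnah5, Lrrc6 and Spag17 did not pass the filter on low values, and of the 30 tested 0 were called by limma and 0 by voom, with 3 at an unadjusted p under 0.05 (10%, against 6.27% of all genes). Over all 12814 genes tested 0.219% were called higher and 0.0468% lower. The 30 genes were divided between 17 above 0 (49.6% of all genes) and 13 below 0, with a median of 0.09, against -0.0037 for all genes; without young mouse 1 the median was -0.077.

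The smallest p belonged to the assembly factor Zmynd10, at 30.7, 9.78 and 11.2 in aged and 26.0, 27.6 and 28.9 in young choroid plexus (-0.81 ± 0.34, adjusted p = 0.71). The aged mice spanned the young values. Rsph9 followed (0.40 ± 0.19, adjusted p = 0.79), with values given above. Dnah10 was the only gene with every aged library above every young one (1.28 ± 0.63, adjusted p = 0.79), where 5.28% of all genes were so, and it rests on about 2 reads. Meig1, known from sperm assembly, was 12.8, 15.9 and 8.95 in aged and 11.0, 5.52 and 3.76 in young mice (0.86 ± 0.44, adjusted p = 0.81). Iqcg was 7.68, 7.33 and 8.95 in aged and 4.99, 9.66 and 0 in young mice (1.07 ± 0.59, adjusted p = 0.83). Tppp3 was the only gene with every aged library below every young one, where 5.93% of all genes were so. Foxj1 differed by 0.09 ± 0.19 (adjusted p = 0.98) and Spag6 by 0.08 ± 0.32 (adjusted p = 0.99). The epithelial markers Ttr and Folr1 differed by -0.06 ± 0.07 and 0.03 ± 0.11, and none of 12 such markers was called.

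In lung 1 gene, Spag6, was higher in aged mice, and most others had higher values there without passing the test. Spag6 was 16.2, 19.8 and 20.4 in aged lung and 2.64 and 5.66 in young lung, 19 to 25 reads against 3 and 7. Every aged library thus exceeded both young ones, by 2.03 ± 0.41 on the log2 scale (adjusted p = 0.023). The call was kept in 6 of its 15 alternatives, where the difference ran from 1.56 to 2.47 over all 15. It was lost without aged mouse 1 (adjusted p = 0.11), aged mouse 2 (0.18), aged mouse 3 (0.091) or young mouse 1 (0.31), with young mouse 2 (0.22), with voom (0.10), with no trend (0.31), with no filter (0.17) and with the smallest value as pseudocount (0.085).

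Of the 32 genes tested in lung, limma called 1 higher and 0 lower, where 0.217% and 0.0881% of 14750 genes were, and voom called 0. At an unadjusted p under 0.05 there were 9 (28.1%, against 11.4% of all genes). Values above 0 were seen for 28 of 32 (87.5%, against 53.5% of all genes), with a median of 0.48 against 0.04 for all genes. Every aged library exceeded both young libraries for 14 of 32 genes (43.8%), where 15.9% of all genes did, and lay below them for Tppp3 alone (12.4% of all genes). A single gene's age difference had a median standard error of 0.38, and the genes share their libraries and are not independent. Spag16, at 0 throughout, was not tested.

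The genes with the next smallest p, named after their values were seen, missed the threshold. Ccdc40 was 35.6, 33.4 and 28.4 in aged lung and 10.6 and 14.5 in young lung (1.32 ± 0.31, adjusted p = 0.062). Ak7, an adenylate kinase of the axoneme, was 25.9, 33.3 and 22.2 against 13.2 and 12.1 (1.03 ± 0.33, adjusted p = 0.20). Tekt1 was 20.1, 21.8 and 13.3 against 9.69 and 7.27 (1.03 ± 0.37, adjusted p = 0.27). In all 3, aged and young libraries did not overlap. Rsph4a was 13, 9.36 and 12.4 against 4.41 and 5.66 (1.07 ± 0.43, adjusted p = 0.33). Spag17 was 5.83, 6.24 and 3.55 against 3.53 and 0 (1.60 ± 0.67, adjusted p = 0.35). Foxj1 differed by 0.51 ± 0.23 (adjusted p = 0.40).

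Other ciliary genes of the lung leaned the same way, and 1 of them was called. Of 53 other motile cilia genes 42 were above 0, with a median of 0.39. Tmem212, a membrane protein gene known from ciliated cells, was 60.2, 59.3 and 56.8 in aged and 19.4 and 23.4 in young lung (1.43 ± 0.26, adjusted p = 0.0098). It was called in 9 of 15 alternatives, and without aged mouse 1, aged mouse 2 or young mouse 1 the adjusted p was 0.085, 0.079 and 0.20. Of the intraflagellar transport genes 19 of 28 were above 0 and none was called.

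Lists of markers also leaned with age in lung, those of other tissues included. Of 6 airway secretory genes, 5 were above 0 and Bpifa1, an airway surface protein, was called higher: 603, 491 and 312 in aged against 178 and 94.5 in young mice (1.79 ± 0.30, adjusted p = 0.022). Their summed level was 56164 to 65496 in aged and 64454 to 66156 in young lung. Alveolar markers were below 0 for all 7, with Lamp3 called lower (-1.25 ± 0.21, adjusted p = 0.0037), and their sums were 20137 to 29703 and 31039 to 33832. Scgb1a1 and Sftpc differed by -0.11 ± 0.11 and -0.32 ± 0.13 and were not called. Bpifa1 and Lamp3 were each called in 9 of 15 alternatives, with an adjusted p of up to 0.39. Their calls were lost without aged mouse 1 or 2, at adjusted p of 0.064 and 0.075 for Bpifa1 and 0.064 and 0.073 for Lamp3, and that of Lamp3 also without young mouse 1 (0.13). Of lists for other tissues, markers of choroid plexus epithelium were above 0 for 9 of 10 (median 0.25), of hippocampal neurons for 3 of 4 (1.29) and of hepatocytes for 4 of 7 (0.71). Neuron markers summed to only 35.5 to 90.5 in aged and 19.4 to 33.1 in young lung. Blood cell lists, which lung also expressed, were above 0 for 4 of 5 red cell (0.51) and 6 of 8 lymphocyte markers (0.25). Red cell markers summed to 1144 to 4338 in aged and 754 to 3841 in young lung. No gene of these lists was called. The part of the cell makeup of the samples in the ciliary values was not tested.

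In hippocampus 27 of the 33 genes passed the filter, and limma and voom called 0, with 1 at an unadjusted p under 0.05 (3.70%, against 6.34% of all genes; 0.0499% of all genes were called higher and 0% lower by limma). That gene was Foxj1, at 20.1, 12.3 and 15.1 in aged and 6.19 and 9.71 in young mice, with every aged library above the young ones (0.90 ± 0.41, adjusted p = 0.77). Ak7 also did not overlap, upward, and Dnah2 and Spag6 did not downward, where 11.4% and 9.64% of all genes did so. Spag6 was thus at 0.875, 1.23 and 1.77 in aged and 3.10 and 3.64 in young hippocampus, opposite in direction to lung, on 1 to 3 reads per library (-0.88 ± 0.66, adjusted p = 0.86). Hydin (-1.08 ± 0.72), Tppp3 (0.48 ± 0.33) and Dnah2 (-0.99 ± 0.70) preceded it by p, with adjusted p of 0.84 to 0.85. Values were above 0 for 16 of the 27 genes, against 51.2% of all genes.

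**Figure D4:**
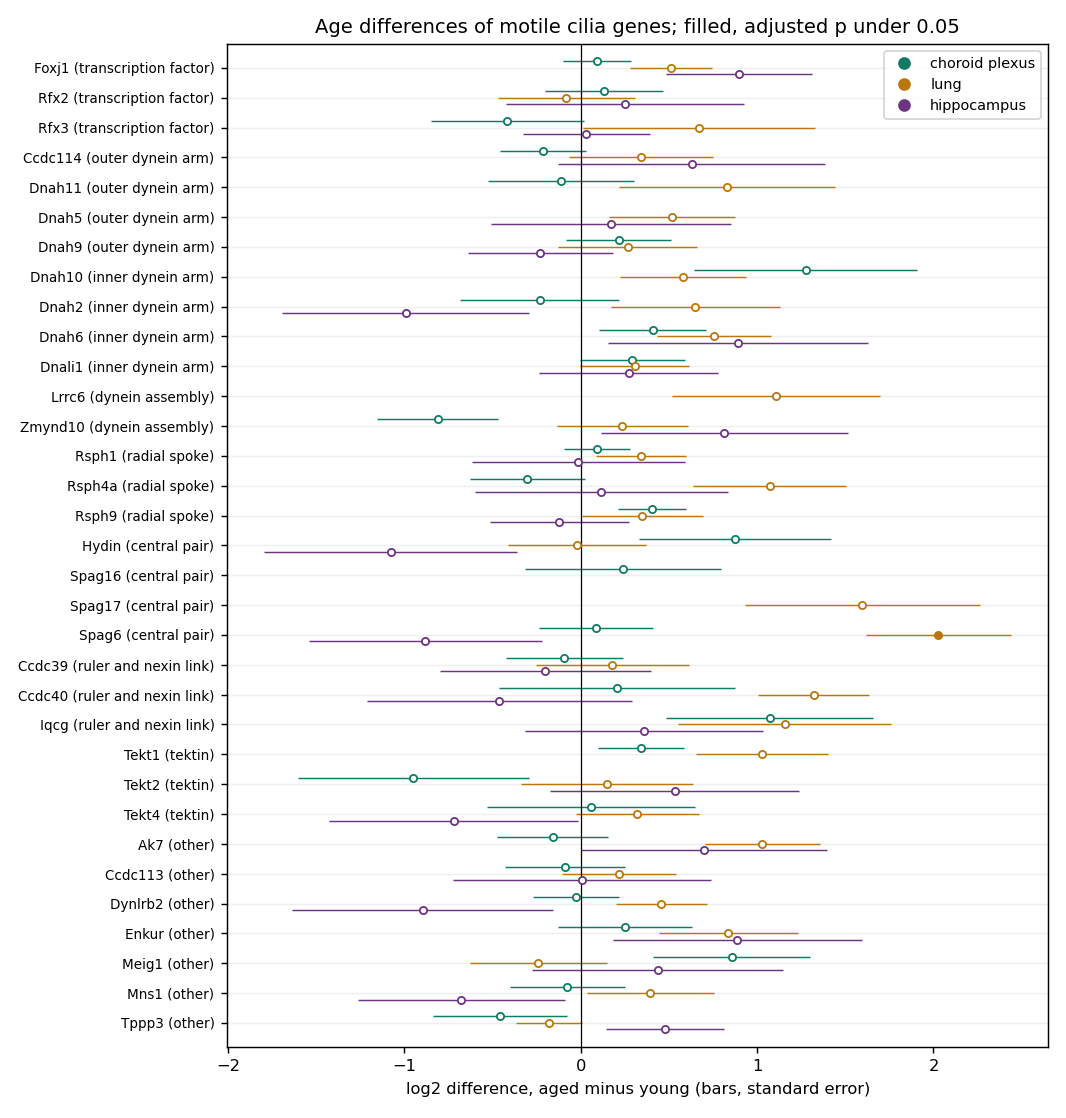
Log2 difference between aged and young mice (x axis) for each motile cilia gene in choroid plexus, lung and hippocampus, with standard errors; the filled point had an adjusted p under 0.05 and open points did not. Lung points lie mostly right of 0 (28 of 32), with Spag6, the filled point, at 2.03, while choroid plexus and hippocampus points lie on both sides.

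Whether the age difference itself differed between tissues was tested directly. No gene of 33 was called by limma or voom for choroid plexus minus lung, with 2 at an unadjusted p under 0.05 (6.06%, against 7.55% of all genes), nor for choroid plexus minus hippocampus, with 5 (15.2%, against 6.41%). Over all genes 0.0286% were called higher and 0.0114% lower for lung, and 0.0171% and 0% for hippocampus. For choroid plexus minus lung, 25 of 33 values were below 0, with a median of -0.40, against -0.023 for all genes. The median rests on single mice: it was -0.048, with 12 of 33 above 0, without young mouse 3, -0.23 without aged mouse 2, -0.60 without aged mouse 1 and -0.68 without young mouse 1. Spag6 had the smallest p, at -2.21 ± 0.58 (adjusted p = 0.30), so that its higher value in aged lung was not shown to differ from its change in choroid plexus. Spag17 (-1.47 ± 0.68), Foxj1 (-0.60 ± 0.29), Ak7 (-1.11 ± 0.60) and Rfx3 (-1.41 ± 0.83) followed, with adjusted p of 0.65 to 0.73. For choroid plexus minus hippocampus the smallest p were those of Foxj1 (-0.99 ± 0.29), Hydin (2.20 ± 0.84), Tppp3 (-0.93 ± 0.38), Zmynd10 (-1.68 ± 0.75) and Tekt2 (-1.81 ± 0.87), with adjusted p of 0.50 to 0.78.

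The parabiosis experiment asked whether the age of the partner alters the choroid plexus. Of the 33 genes, Dnah5 and Spag17 did not pass the filter, and of the 31 tested none was called by limma or voom in any of the 4 comparisons. Comparisons that share a group share its libraries, so their values stand side by side here and are not separate evidence. Values in this table are not set against those of the tissue table, which was normalised separately.

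Between old and young isochronic parabionts 1 of 31 genes had an unadjusted p under 0.05 (3.23%, against 5.07% of all genes), and of all 15791 genes 0.108% were called higher and 0.019% lower. The 31 genes were above 0 for 14 (49.6% of all genes), with a median of -0.033 (0.0094 without young isochronic replicate 5). Tppp3 was 23.1, 22.2 and 20.9 in old and 25.8, 36 and 31.4 in young isochronic parabionts, without overlap (-0.46 ± 0.20, adjusted p = 0.93). Old values also lay below all young values for Tekt2 and Tekt4, which makes 3 of 31 genes (9.68%, against 4.84% of all genes), and above them for none (5.51% of all genes). Tekt2 (-0.54 ± 0.32), Foxj1 (-0.15 ± 0.10), Tekt4 (-0.41 ± 0.28) and Ccdc114 (0.22 ± 0.17) followed, with adjusted p of 1. Tppp3 was thus lower in each old than in each young choroid plexus library both here and in unjoined mice, though neither difference passed the test, and in heterochronic parabionts old (21.4 and 20.7) and young values overlapped.

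Young heterochronic parabionts, which shared blood with an old partner, differed little from young isochronic ones. A single gene of 31 had an unadjusted p under 0.05 (3.23%, against 6.28% of all genes), and 0% of all genes were called. That gene was Tppp3, at 19.7, 21.9 and 26.2 in young heterochronic parabionts (-0.44 ± 0.20, adjusted p = 0.79), with overlap at 25.8 and 26.2. Spag6 was 91.6, 85.8 and 63.4 against 62.9, 75.2 and 64.4 (0.23 ± 0.12, adjusted p = 0.82). In Spag6, 1 heterochronic library lay among the isochronic ones. Dynlrb2, a light chain of cytoplasmic and ciliary dynein, was 83.5, 81.8 and 86.6 against 67.0, 76.7 and 72.6 (0.22 ± 0.12, adjusted p = 0.83). Tekt4 was 10.4, 9.97 and 15.1 against 15.5, 15.7 and 15.7 (-0.39 ± 0.28, adjusted p = 0.89). Rfx3 was 89.3, 81.8 and 79.5 against 73.2, 74.4 and 79.2 (0.14 ± 0.11, adjusted p = 0.90). Libraries did not overlap for 3 genes upward (Dynlrb2, Enkur and Rfx3) and for Tekt4 downward, or 9.68% and 3.23% of the 31, where 4.57% and 5.53% of all genes did so. Values were above 0 for 20 of the 31 (48.4% of all genes).

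Old heterochronic parabionts, which had a young partner, numbered only 2. Against old isochronic ones, 4 of 31 genes had an unadjusted p under 0.05 (12.9%, against 8.63% of all genes). With adjustment 0% of all genes were called. Foxj1 was 180 and 214 in old heterochronic and 152, 168 and 166 in old isochronic parabionts (0.28 ± 0.11, adjusted p = 0.51). Tekt1 was 137 and 139 against 118, 108 and 118 (0.27 ± 0.11, adjusted p = 0.53). Both genes were higher in each heterochronic library than in any isochronic one.

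Iqcg went the other way, with 31.5 and 23.7 against 40.4, 36.6 and 36.3 (-0.45 ± 0.19, adjusted p = 0.53). Tekt2 was 12.4 and 11.8 against 6.73, 5.97 and 6.36 (0.83 ± 0.36, adjusted p = 0.54). It rests on few reads, 11 and 8 in the old heterochronic libraries and 7 in each old isochronic one. Dnah11 was 42.8 and 44.4 against 54.8, 56.2 and 49.1 (-0.29 ± 0.16, adjusted p = 0.62). Groups did not overlap for 8 of 31 genes upward (25.8%) and 6 downward (19.4%), where 13.3% and 12.8% of all genes did so, and 16 of 31 were above 0 (47.5% of all genes). All 12 choroid plexus epithelial markers were above 0 in this comparison, with a median of 0.30, and none was called. The largest gene held 853 and 848 reads in old heterochronic and 946 to 952 in old isochronic libraries. A single read was worth 1.13 and 1.48 in the former and 0.852 to 0.961 in the latter. Values of genes near this ceiling rise with the worth of a read, and how far this sets the marker values was not tested. The part of the markers in the ciliary values was not tested either.

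Between old and young heterochronic parabionts 2 of 31 genes had an unadjusted p under 0.05 (6.45%, against 8.25% of all genes). With adjustment 0.095% of all genes were called higher and 0.019% lower. Ccdc113 was 92.3 and 87.2 in old and 117, 106 and 107 in young heterochronic parabionts (-0.29 ± 0.11, adjusted p = 0.46), and Iqcg was 31.5 and 23.7 against 41.7, 39.9 and 31.2 (-0.44 ± 0.19, adjusted p = 0.54). Tekt1 (0.20 ± 0.11), Dynlrb2 (-0.25 ± 0.14) and Spag6 (-0.24 ± 0.14) followed, with adjusted p of 0.62 to 0.64. Spag6 was 64.1 and 69.5 in the old heterochronic libraries, which overlapped the young ones. Groups did not overlap for 3 genes upward and 2 downward (9.68% and 6.45%, against 10.7% and 11% of all genes), and 13 of 31 were above 0 (50.1% of all genes). Other motile cilia genes gave 0 calls of 55 in each of the 4 comparisons, with medians between -0.09 and -0.02.

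**Figure D5:**
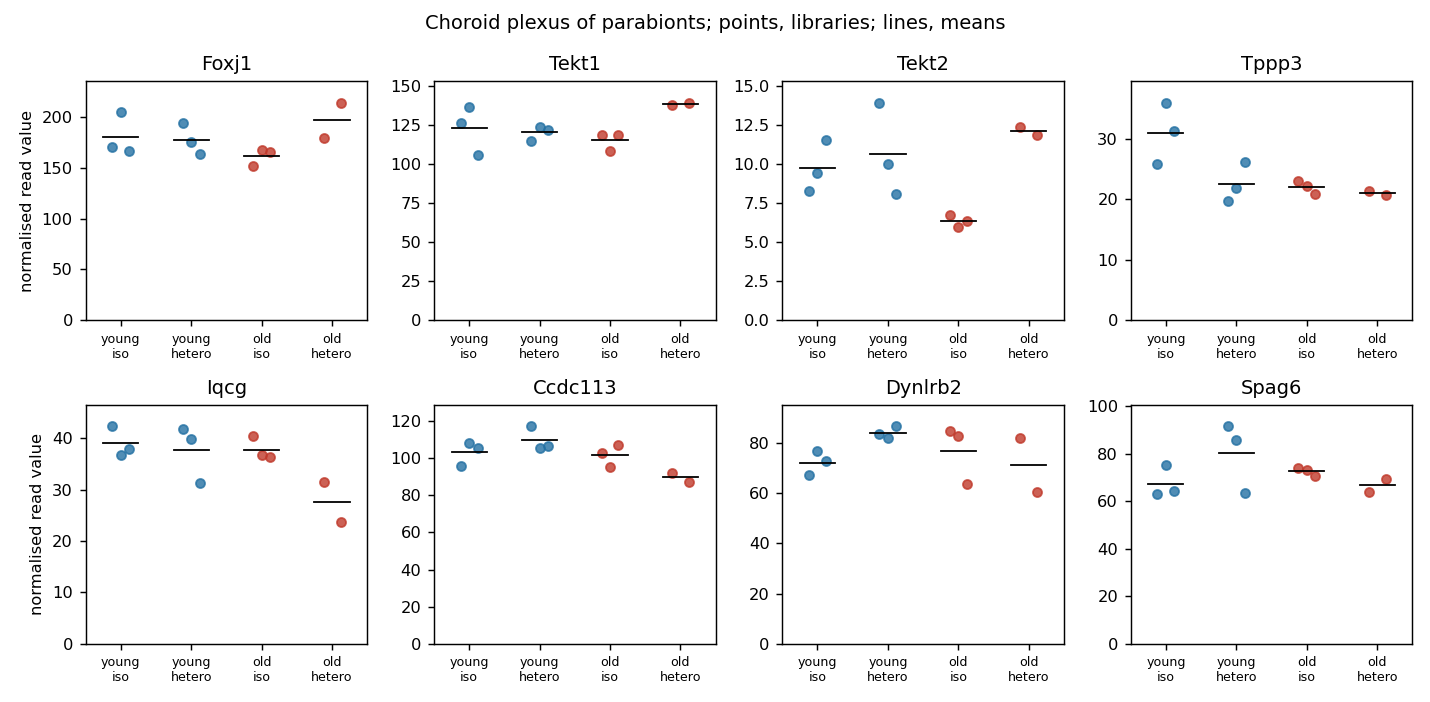
Normalised read values (y axis, from 0) in choroid plexus of the 4 parabiont groups, named on the x axis, for 8 motile cilia genes; points are libraries and lines are group means. Foxj1, Tekt1 and Tekt2 lie higher and Iqcg and Ccdc113 lower in the 2 old heterochronic libraries than in the 3 old isochronic ones, and no difference passed the test. Tekt2 rests on 7 to 11 reads in these libraries.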

How the data were processed

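The labels cite a 3′-tag protocol for library preparation. The submitters' processing notes name TopHat and mm9; how reads were counted and scaled is not given in the sources used here. Values are deposited as a signal, read from its steps as weighted reads of a RefSeq transcript over a factor for its library, so no count model was used. A transcript was named by the deposited symbol where RefSeq still lists it, otherwise by accession, and 1 column that matched no listed sample was not used.

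Fits used limma 3.58.1 in R 4.3.3 (trend, robust, two-sided) after adding a pseudocount worth 1 read (0.881 to 1.24) and taking log2. Tested genes exceeded it in as many libraries as the smaller group holds, and p-values were Benjamini-Hochberg adjusted over all genes tested. Fits between tissues had mouse as a fixed term; the 4 parabiont groups shared a fit. The fit of differences between age changes also had mouse as a fixed term. P-values of the age and parabiont comparisons measure the spread between numbered mice. In fits with mouse as a term, p-values measure the spread of libraries left after the terms of the fit. Scripts were tested on simulated data. Members with values in every library are Foxj1, Rfx2, Rfx3, the 2 largest and 2 smallest choroid plexus differences from the 8 other tissues, and, for each age or parabiosis comparison, those called or otherwise the 5 smallest p; listed genes are the 3 with the smallest p. Members and lists were chosen with earlier results of these data known. Alternatives were other scalings, pseudocounts, filters, voom, no trend, blocks and left-out libraries.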

Additional observations from a re-analysis of the deposited data

How the results depend on the processing

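Called counts of the motile cilia genes stayed within 1.5 times their reported value under every alternative run, with 3 exceptions. With the smallest value above 0 as pseudocount, genes higher in choroid plexus than in lung fell from 11 to 2, and genes lower in hippocampus than in the 8 other tissues from 1 to 0. The third is the single call with age in lung, Spag6, which went from 1 to 0 with no filter, with no trend, with that pseudocount, with voom and with young mouse 2, and ran from 0 to 1 over the left-out mice. The cause was not tested. Signs of values that had not been called turned for Rfx2 in hippocampus (-0.045 with a pseudocount 4 times as large, -0.19 with quantile normalization, -0.066 with upper-quartile scaling, -0.18 with young mouse 2 and -0.15 to 0.18 over left-out libraries), for Dnah5 in choroid plexus (-0.17 with young mouse 2 and -0.21 to 0.11 over left-out libraries) and for Rfx3 in lung with quantile normalization (-0.27). Leaving out each mouse or library gave 27 to 29 genes higher in choroid plexus, 29 in lung, 14 to 18 in hippocampus and 9 to 11 higher and 8 to 9 lower in choroid plexus than in lung. No motile cilia gene was called for age in choroid plexus or hippocampus, or in parabionts, in any alternative. Medians of the 33 genes against the 8 other tissues ran from 1.78 to 6.08 in choroid plexus, 1.89 to 5.99 in lung and 0.27 to 2.39 in hippocampus, and that of the age difference of choroid plexus minus lung from -0.75 to -0.048. The median age difference in lung ran from 0.33 to 0.82, the latter with young mouse 2. Over all genes, calls with age moved more: 32 higher and 13 lower in lung became 0 to 87 and 0 to 21, 28 and 6 in choroid plexus became 2 to 46 and 0 to 8, and 7 and 0 in hippocampus became 0 to 23 and 0 to 2. Their differences, 5 and 2 for choroid plexus minus lung and 3 and 0 for choroid plexus minus hippocampus, became 0 to 7 and 0 to 7, and 0 to 3 and 0 to 8. In parabionts, 17 and 3 (old against young isochronic) became 3 to 33 and 0 to 11, 15 and 3 (old against young heterochronic) became 6 to 25 and 0 to 31, 0 and 0 (old heterochronic against old isochronic) became 0 to 7 and 0 to 44, and 0 and 0 (young heterochronic against young isochronic) became 0 and 0 to 6. Replicate numbers showed no pairing of aged with young mice in choroid plexus, where correlations of same-numbered deviations were -0.026, 0.014 and -0.031. In lung such correlations cannot decide, because its young libraries mirror each other (0.041 and -0.041 for aged mouse 1). With a replicate block the called motile cilia genes numbered 0 in choroid plexus, 1 in lung (Spag6, adjusted p = 0.0098) and 0 in hippocampus, and all genes called numbered 74 higher and 18 lower in lung. Without the replicate block of mouse in the fits between tissues, called counts kept within 1.5 times. Depth limits the genes near 0: a single read was worth up to 1.55 in hippocampus.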
